A study of Mus musculus with 12 samples.

Results

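The fibroblast growth factor (FGF) genes described here are 6 ligands (Fgf1, Fgf2, Fgf7, Fgf9, Fgf10 and Fgf18) and the 4 receptor tyrosine kinases Fgfr1, Fgfr2, Fgfr3 and Fgfr4. They were taken by gene symbol from the deposited table of gene counts, in which they are 10 of 52550 genes, and all 10 were among the 15885 protein-coding genes that passed the filter on low counts and entered the tests. The table covers whole lungs of 12 neonatal mice, each sequenced as its own library and numbered here as in its label. Libraries 3, 4 and 5 are the replicates of WT PBS, 9, 10 and 11 those of WT LPS, 6, 7 and 8 those of Adm+/- PBS, and 1, 2 and 12 those of Adm+/- LPS, so every group has 3. Adm+/- mice lack a functional copy of the adrenomedullin gene in every cell from the germline on, and they came from a 129/SvEv line backcrossed for 12 generations to C57BL/6J, the background of all 4 groups. Mice lacking both copies die as embryos, so a complete loss is not represented. Pups received lipopolysaccharide (LPS) of Escherichia coli O55:B5 at 6 mg/kg or phosphate-buffered saline (PBS) by intraperitoneal injection once a day on postnatal days 3 to 5, 3 doses in all, and lungs were collected on postnatal day 5, 6 h after the last dose. The design asks how LPS, a model of inflammatory injury to the developing lung, changes these genes in each genotype and whether the change depends on Adm.

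FGFs are secreted proteins that bind receptor tyrosine kinases on neighbouring cells, with heparan sulfate chains as a cofactor, and switch on the Ras and MAP kinase relay. In the lung, Fgf10 and Fgf7 are made by mesenchymal cells and act on epithelium through the IIIb splice form of Fgfr2, while Fgf9 and Fgf18 act mainly on mesenchymal cells. Fgfr3 and Fgfr4 are together needed in mice for the septation that divides air sacs into alveoli after birth. Etv4 and Etv5 are transcription factors switched on by FGF signalling, and the Sprouty, Spred and Dusp families restrain the relay in return.

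Total counts per library ranged from 22382535 to 38062873, and values are given as CPM, protein-coding counts brought to a common library size with edgeR's TMM factors. The targeted gene was weakly expressed: Adm stood at 3.96, 7.09 and 4.57 CPM in WT PBS and at 4.58, 2.87 and 3.62 CPM in Adm+/- PBS, and at 7.77, 8.15 and 4.46 CPM in WT LPS and 3.74, 6.28 and 3.92 CPM in Adm+/- LPS. Its genotype difference was -0.50 ± 0.32 (log2, SE) in PBS and -0.55 ± 0.31 in LPS, and neither passed the test (adjusted p = 0.999 and 0.48, edgeR quasi-likelihood test). WT PBS replicate 5 and Adm+/- PBS replicate 6 stood apart, with 77.8% and 80.1% of counts on protein-coding genes against 84.3% to 87.6% elsewhere, and with the highest summed lung fibroblast markers (34522 and 24333 CPM over 16 genes against 10124 to 15093 CPM in the other 10 libraries). Markers of cells outside the lung parenchyma were present in WT LPS: the 12 skeletal muscle genes summed to 2379 to 5306 CPM there against 180.5 to 737 CPM in the other groups, and the 10 squamous epithelium genes to 2961 and 1523 CPM in replicates 9 and 11, against 26.2 CPM in replicate 10 and at most 41.4 CPM in the other groups. Ttn, Myh8 and Acta1 led the first list and Krt4, Krt13 and Krt5 the second, and all the members tested (10 and 7) passed as higher with LPS in WT mice (10.5% of all genes), against 1 and 0 in Adm+/- mice (12.8% of all genes). The squamous genes were scarce outside WT LPS, so they could pass the filter on low counts through that group alone. That all 7 tested passed there may therefore be set in part by the filter. Myh4, Sprr3, Sprr1a and Krtdap had no counts in WT PBS. The 10 neutrophil genes, led by S100a9, S100a8 and Ltf, went from 40.7 to 185 CPM in the PBS libraries to 1606 to 2965 CPM in the LPS libraries. Lung identity was plain in all 12 libraries, with the 9 type II pneumocyte genes summing to 13503 to 17521 CPM, most of it Sftpc. In whole lung, fewer cells of a type and less RNA per cell cannot be told apart for any gene below.

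**Figure D1:**
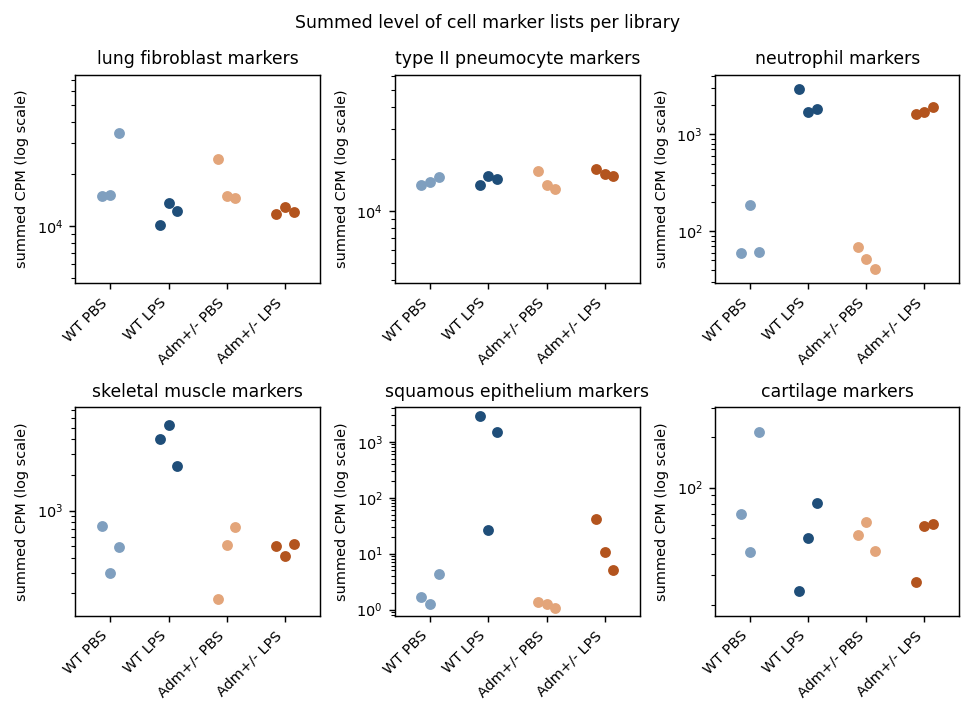
Summed CPM (log scale) of 6 lists of cell marker genes, 1 point per library, in the 4 groups. Neutrophil genes were higher in all 6 LPS libraries, skeletal muscle genes were highest in the 3 WT LPS libraries, and squamous epithelium genes in WT LPS replicates 9 and 11.

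LPS lowered FGF genes in both genotypes and raised none of the 10 past the threshold (adjusted p below 0.05 and absolute log2 fold change above 0.5). In WT mice 3 of the 10 were down-regulated (Fgf10, Fgf18 and Fgfr4), where 17.6% of all tested genes passed in either direction and 7.09% passed as lower. All 3 of these WT calls were lost with limma-voom's treat, which tests against 0.5 on the log2 scale. The LPS and PBS libraries of 3 members (Fgf1, Fgf18 and Fgfr4) did not overlap in WT mice, all lower, as for 17.9% of all genes, and 5 members had an unadjusted p below 0.05, as had 36.7% of all genes. In Adm+/- mice 5 of the 10 were down-regulated (Fgf1, Fgf10, Fgf18, Fgfr3 and Fgfr4), where 25% of all tested genes passed and 12.2% passed as lower. With limma-voom's treat the Adm+/- calls of Fgf1, Fgf18 and Fgfr3 were lost. Groups did not overlap for 7 of the 10 (the 5 called and Fgfr2 lower, Fgf2 higher) against 53.7% of all genes, and 8 had an unadjusted p below 0.05 against 41.8%. The median log2 fold change of the 10 genes was -0.32 in WT and -0.64 in Adm+/- mice, beside 0.01 and -0.01 over all 15885 genes. The WT and Adm+/- libraries of these responses are separate animals, and the difference between the responses was tested on its own. None of the 10 differences passed, with 0.145% of all genes passing and 2 of the 10 (Fgf10 and Fgfr3) at an unadjusted p below 0.05, as were 7.85% of all genes.

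**Figure D2:**
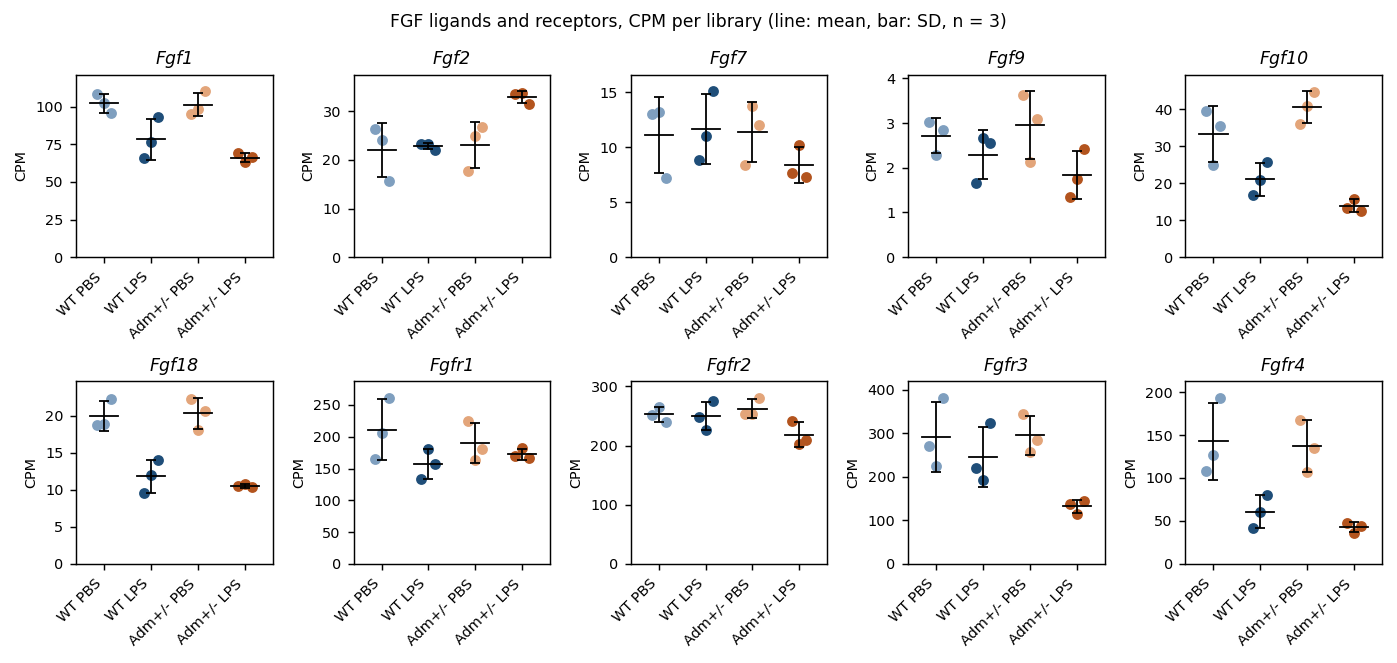
CPM of the 6 ligands and 4 receptors in each library (points), with the mean (line) and SD (bar) of the 3 libraries of each group. Fgf10, Fgf18 and Fgfr4 lay lower with LPS in both genotypes, Fgfr3 and Fgf1 were lowest in Adm+/- LPS, and Fgfr2 stayed between 203 and 281 CPM in all 12 libraries.

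Levels of different genes were compared per length, as CPM per kilobase of annotated exon. In PBS the receptors led: Fgfr3 (40.8 CPM per kilobase in WT, 41.3 in Adm+/-) and Fgfr4 (40.3 and 38.6) were highest, with overlapping ranges, followed by Fgfr2 (24.5 and 25.4) and Fgfr1 (21.3 and 19.2). Among ligands Fgf1 (18.7 and 18.6) and Fgf18 (16.9 and 17.1) overlapped at the top, Fgf10 (7.23 and 8.81) stood apart below them, Fgf7 (3.43 and 3.50) and Fgf2 (3.25 and 3.41) overlapped, and Fgf9 (0.584 and 0.635) was lowest. The order changed with LPS. Fgfr4 fell from the second place to the third in WT LPS (17.1 CPM per kilobase, overlapping both Fgfr2 and Fgfr1) and to the fifth in Adm+/- LPS (12.1, overlapping Fgf1). In Adm+/- LPS Fgfr2 (21.1) took the first place, overlapping Fgfr3 (18.5), and Fgf2 (4.86) moved above Fgf10 (3.02) without overlap, whereas Fgf10 was the higher of the pair in the other 3 groups.

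The same values as shares show which members gave way. Fgfr4 made up 31.3% ± 3.4 (SD, n = 3) of the summed receptor level per kilobase in WT PBS and 18.5% ± 3.2 in WT LPS, and 30.8% ± 2.5 and 17.4% ± 1.4 in the Adm+/- groups. The share of Fgfr3 was 32% ± 3.8 in WT PBS and 37.2% ± 4.6 in WT LPS, but 33.2% ± 0.8 and 26.8% ± 2.0 in Adm+/- PBS and LPS. Of the summed ligand level, Fgf10 held 14.4% ± 2.7 in WT PBS, 12.5% ± 0.5 in WT LPS, 16.9% ± 1.1 in Adm+/- PBS and 9.47% ± 0.93 in Adm+/- LPS, while Fgf2 held 6.47% ± 1.53, 9.49% ± 1.86, 6.52% ± 1.14 and 15.3% ± 0.2. Gene lengths are those of all annotated exons, so a gene that uses few of its exons in lung is understated on this scale.

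Fgf10, the mesenchymal ligand that drives airway branching and maintains lipofibroblasts, lies on the plus strand of chromosome 13 (mm10, 118669791 to 118792115). Fgf18, a mesenchymal ligand linked to alveolar elastic fibre formation, lies on the minus strand of chromosome 11 (33117430 to 33147400). They are the only ligands among the 6 that passed in both genotypes, and the 250 bases before their RefSeq start sites (GRCm38.p6, printed 5′ to 3′ on the gene's strand) are shown because both fell together. Capitals mark every match to the 10 motifs searched on both strands: a GC box (GGGCGG) in both, the forkhead (FOX) core TGTTTAC in Fgf10, and an NF-kappa B match in Fgf18.
Fgf10 promoter, chr13:118714449-118714698, plus strand: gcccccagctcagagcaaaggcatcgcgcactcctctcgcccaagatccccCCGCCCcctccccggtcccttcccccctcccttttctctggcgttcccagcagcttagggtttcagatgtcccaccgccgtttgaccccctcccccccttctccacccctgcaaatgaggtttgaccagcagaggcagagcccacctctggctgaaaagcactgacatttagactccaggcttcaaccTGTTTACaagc
Fgf18 promoter, chr11:33147401-33147650, minus strand: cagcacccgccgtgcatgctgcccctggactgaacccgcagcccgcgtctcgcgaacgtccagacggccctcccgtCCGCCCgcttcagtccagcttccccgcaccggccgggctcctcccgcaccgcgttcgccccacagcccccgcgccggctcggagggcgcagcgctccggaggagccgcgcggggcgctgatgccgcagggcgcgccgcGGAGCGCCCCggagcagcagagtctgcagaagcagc
The Fgf10 stretch holds 61.2% G and C and the Fgf18 stretch 77.2%, against a median of 52.4% over the same windows of 32851 RefSeq promoters. A GC box occurs in 32.7% of those promoters, a FOX core in 3.17% and an NF-kappa B match in 7.25%. The FOX core of Fgf10 spans 11 to 5 bases before its start, and the NF-kappa B match of Fgf18 36 to 27 bases before its start. No match to the TATA box (TATAAA, 12.4% of all promoters), AP-1 (TGANTCA, 6.75%), CRE (TGACGTCA, 1.55%), E-box (CACGTG, 6.02%), ETS (CCGGAA, 12%), STAT (TTCNNNGAA, 7.02%) or T-box (AGGTGTNA, 2.68%) motif was found in either window, which says only that these letters are not in these 250 bases. A match is a description of the letters, and binding was not measured.

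Fgf10 was expressed at 39.4, 24.9 and 35.4 CPM in WT PBS (replicates 3, 4 and 5) and at 16.7, 20.9 and 25.6 CPM in WT LPS (replicates 9, 10 and 11). The highest WT LPS library lay just above the lowest WT PBS library, so the groups overlapped. In Adm+/- mice it was expressed at 36, 40.8 and 44.7 CPM in PBS and at 13.4, 15.8 and 12.5 CPM in LPS, and every LPS library lay below every PBS library, at less than 50% of any of them. The fall was 1.58-fold in WT (log2 -0.66 ± 0.19 SE, adjusted p = 0.0328, edgeR) and 2.92-fold in Adm+/- mice (log2 -1.54 ± 0.20, adjusted p = 0.000239). The responses differed by -0.89 ± 0.27 (log2, Adm+/- minus WT), at an unadjusted p of 0.00745 and an adjusted p of 0.408, so a difference between the genotypes did not pass. The WT call depended on single libraries: it was lost without WT PBS replicate 3 (log2 -0.52, adjusted p = 0.0874), WT PBS replicate 5 (-0.62, 0.0705), WT LPS replicate 9 (-0.52, 0.134) or WT LPS replicate 10 (-0.66, 0.0719), in a fit of only the groups compared (adjusted p = 0.124), and with glmTreat (0.449) or limma-voom's treat (1), which test against 0.5 on the log2 scale. The Adm+/- fall ranged from -1.65 to -1.47 over the 12 fits that each left out a library, and passed in all of them.

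Fgf18 fell in both genotypes with no overlap between PBS and LPS libraries. It stood at 18.8, 18.9 and 22.3 CPM in WT PBS and at 9.52, 12.0 and 14.0 CPM in WT LPS. The Adm+/- libraries held 22.3, 18.1 and 20.7 CPM in PBS and 10.5, 10.8 and 10.4 CPM in LPS. The change was -0.76 ± 0.15 (log2, SE, adjusted p = 0.00591, edgeR) in WT and -0.95 ± 0.15 (adjusted p = 0.000897) in Adm+/- mice, with a difference of -0.19 ± 0.21 (adjusted p = 0.98). Fgf18 kept its call in every fit of either response that left out a single library. Its WT call was lost in a fit of only the groups compared (adjusted p = 0.0547), without WT LPS replicates 9 and 11 together (0.055), and when tested against a fold of 0.5 on the log2 scale by glmTreat (0.159) or limma-voom's treat (0.447), and its Adm+/- call by the last of these (0.0806). The summed lung fibroblast markers ranged from 14424 to 34522 CPM in the 6 PBS libraries and from 10124 to 13480 CPM in the 6 LPS libraries. Within that list, led by Col1a1, Col1a2 and Mfap4, 4 of 16 genes passed as higher and 1 as lower in WT mice (10.5% and 7.09% of all genes), and 1 as higher and 2 as lower in Adm+/- mice (12.8% and 12.2%). The median log2 fold change of the 16 genes was -0.26 in WT and 0.02 in Adm+/- mice. The 10 endothelial genes summed to 3981 to 4187 CPM in WT PBS and 3365 to 3401 CPM in WT LPS. In Adm+/- mice they summed to 4137 to 4296 CPM in PBS and 3479 to 3841 CPM in LPS. Of them 2 passed as lower in WT and 3 in Adm+/- mice, and none as higher. The part of these cell types in the ligand values was not tested.

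Fgf1, the acidic FGF that binds all 4 receptors, was lower with LPS in both genotypes, past the fold threshold in Adm+/- mice. Its WT values were 108, 103 and 95.6 CPM with PBS and 66.0, 76.4 and 92.9 CPM with LPS. The Adm+/- values were 95.3, 98.8 and 110.4 CPM with PBS and 69.0, 63.3 and 66.3 CPM with LPS. All LPS libraries lay below all PBS libraries in both genotypes. The change was -0.38 ± 0.12 (log2, SE, adjusted p = 0.0442, edgeR) in WT mice, short of the fold threshold, and -0.62 ± 0.12 (adjusted p = 0.00311) in Adm+/- mice, past it, a call lost with glmTreat (0.306) and limma-voom's treat (0.822). Without WT LPS replicate 11 the WT change was -0.52 (adjusted p = 0.0105), past both thresholds. The difference of the responses was -0.23 ± 0.17 (adjusted p = 0.882).

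Fgf2, the basic FGF, was the only member with a higher mean in Adm+/- LPS than in Adm+/- PBS. It was measured at 17.7, 25.0 and 26.7 CPM in Adm+/- PBS and at 33.5, 33.8 and 31.6 CPM in Adm+/- LPS, without overlap, and at 26.3, 24.1 and 15.7 CPM in WT PBS and 23.3, 23.2 and 22.1 CPM in WT LPS, where the LPS libraries lay within the PBS range. The Adm+/- change was 0.51 ± 0.19 (log2, SE) with an adjusted p of 0.0591 by edgeR, and it passed with DESeq2 (adjusted p = 0.0289) and limma-voom (0.047) and without WT PBS replicate 5 (0.0125). It was 0.34 (adjusted p = 0.219) without Adm+/- PBS replicate 6, and 0.35 (adjusted p = 0.0105), short of the fold threshold, without WT PBS replicate 5 and Adm+/- PBS replicate 6 together. In WT mice the change was 0.05 ± 0.19 (adjusted p = 0.865), and it was -0.14 without WT PBS replicate 5. Fgf2 exons share 895 bases in all with other annotated genes. Its span overlaps Nudt6, Fgf2os and Gm42923 on the other strand and Gm43439 on its own strand. The strand setting of the counting is not stated, so reads of Fgf2 and these genes may be mixed. The 2 PBS libraries with the lowest Fgf2 level were those that stood apart, WT PBS replicate 5 and Adm+/- PBS replicate 6, and these also held the lowest Fgf7 level of their groups.

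Fgf7, the keratinocyte growth factor that stimulates type II pneumocytes, ranged from 7.17 to 13.2 CPM in WT PBS, 8.84 to 15.1 CPM in WT LPS, 8.42 to 13.7 CPM in Adm+/- PBS and 7.27 to 10.2 CPM in Adm+/- LPS. The groups overlapped in both genotypes, with changes of 0.06 ± 0.28 (log2, SE, adjusted p = 0.898, edgeR) in WT and -0.45 ± 0.28 (adjusted p = 0.249) in Adm+/- mice. The sign of the WT change turned to -0.18 without WT PBS replicate 5 and to -0.17 without WT LPS replicate 11. Fgf9, which embryonic epithelium and mesothelium send to the mesenchyme, was the scarcest member at 1.35 to 3.63 CPM (36 to 78 counts per library). Its changes of -0.25 ± 0.29 in WT (adjusted p = 0.547, edgeR) and -0.67 ± 0.29 in Adm+/- mice (adjusted p = 0.0992) did not pass.

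Fgfr4 fell with LPS in both genotypes. This receptor lies on chromosome 13 (mm10, 55152640 to 55168759, plus strand) and shares no annotated exon with another gene. Its WT level was 108, 127 and 193 CPM in PBS and 42, 60.1 and 80.0 CPM in LPS. Its Adm+/- level was 168, 107 and 135 CPM in PBS and 47.6, 36.2 and 44.4 CPM in LPS. Every LPS library lay below every PBS library. The fall was 2.35-fold in WT (log2 -1.23 ± 0.26 SE, adjusted p = 0.00795, edgeR) and 3.20-fold in Adm+/- mice (log2 -1.68 ± 0.27, adjusted p = 0.000886), and the responses differed by -0.44 ± 0.37 (adjusted p = 0.93). With single libraries left out, the WT change ranged from -1.48 to -0.96 and the Adm+/- change from -1.83 to -1.51, and all of these fits passed. The WT call was lost without WT LPS replicates 9 and 11 together (log2 -1.25, adjusted p = 0.0874) and with limma-voom's treat (0.144). The highest PBS values came from the libraries that stood apart, WT PBS replicate 5 (193 CPM) and Adm+/- PBS replicate 6 (168 CPM).

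Fgfr3 fell with LPS in Adm+/- mice and did not pass in WT mice. It was expressed at 270.4, 225 and 382 CPM in WT PBS and 221, 194 and 324 CPM in WT LPS, with wide overlap. The Adm+/- level was 345, 258 and 284 CPM in PBS and 137, 116 and 145 CPM in LPS, and all 3 LPS libraries lay below all 9 libraries of the other groups. The change was -0.25 ± 0.22 (log2, SE, adjusted p = 0.443, edgeR) in WT and -1.16 ± 0.22 (a 2.23-fold fall, adjusted p = 0.00275) in Adm+/- mice, a call lost with limma-voom's treat (0.0752). The difference of -0.91 ± 0.31 had an unadjusted p of 0.0138 and an adjusted p of 0.459, so it did not pass. The WT change moved between -0.50 without WT LPS replicate 11 and -0.01 without WT PBS replicate 5, and it was -0.59 (adjusted p = 0.326) without WT LPS replicates 9 and 11, the libraries with squamous epithelium markers. The part of those markers in the result was not tested. Fgfr3 lies on chromosome 5 (mm10, 33721674 to 33737068, plus strand) and shares 998 exonic bases with G630022F23Rik on the other strand, and since the strand setting is not stated, reads of the pair may be mixed in its levels and shares. The 11 markers of cartilage, a tissue rich in Fgfr3, summed to 24 to 80.8 CPM in 11 libraries and to 215 CPM in WT PBS replicate 5. That library had the highest Fgfr3 level. Adm+/- PBS replicate 6, with the next highest Fgfr3 level, held 52.5 CPM of the cartilage markers. Adm+/- LPS replicates 1, 2 and 12, with the lowest Fgfr3 levels, held 27.3, 59.3 and 60.5 CPM of them. None of the 10 of these markers that were tested passed in either genotype (17.6% of all genes in WT and 25% in Adm+/- mice), and their part in the Fgfr3 values was not tested.

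Fgfr1, the main receptor of mesenchymal cells, was measured at 166, 206 and 261 CPM in WT PBS, 133, 180.2 and 157 CPM in WT LPS, 225, 164 and 181 CPM in Adm+/- PBS and 169, 182 and 166 CPM in Adm+/- LPS. The groups overlapped in both genotypes, and the changes were -0.43 ± 0.17 (log2, SE, adjusted p = 0.0969, edgeR) in WT and -0.14 ± 0.17 (adjusted p = 0.582) in Adm+/- mice. Without WT PBS replicate 3 the WT change was -0.58 (adjusted p = 0.0338) and passed. Fgfr2, the receptor for Fgf10 and Fgf7 on epithelium, was the steadiest member, at 252, 266 and 240.5 CPM in WT PBS and 249, 227 and 275 CPM in WT LPS. It stood at 253, 254 and 281 CPM in Adm+/- PBS and at 242, 203 and 209 CPM in Adm+/- LPS, where the LPS libraries lay below the PBS ones. The changes of -0.02 ± 0.10 (adjusted p = 0.924, edgeR) and -0.27 ± 0.10 (adjusted p = 0.0701) did not pass. The counts are per gene, so the IIIb and IIIc forms of Fgfr2 cannot be told apart, and the Gencode M21 model of Fgfr2 spans 130162451 to 133123350 on chromosome 7 (mm10, minus strand), across many other genes, with 314 shared exonic bases.

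**Figure D3:**
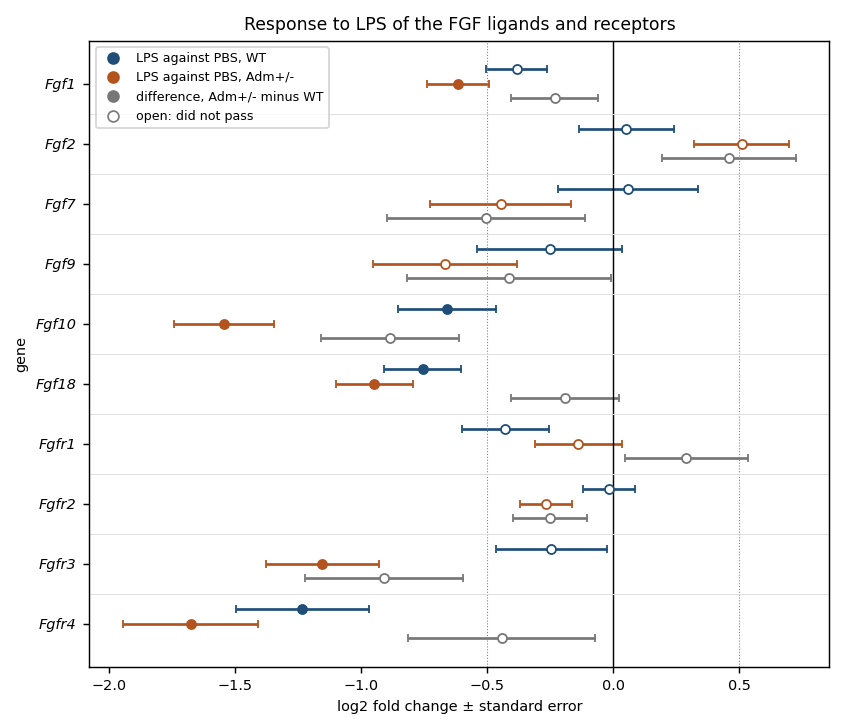
Log2 fold change (point) with its standard error (bar) of the LPS response in WT mice, in Adm+/- mice and of the difference between them, from 1 edgeR fit of 12 libraries. Filled points passed (adjusted p below 0.05 and absolute log2 fold change above 0.5), which 3 WT responses, 5 Adm+/- responses and no difference did. Dotted lines mark ±0.5.

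The genotypes were also compared within each treatment. In PBS none of the 10 members passed between Adm+/- and WT mice, with differences from -0.15 (Fgfr1) to 0.29 (Fgf10) and an adjusted p of 0.999 for each by edgeR. DESeq2 and limma-voom called 0 members as well, no member had an unadjusted p below 0.05, and 0% of all genes passed, with 2.17% at an unadjusted p below 0.05. The genotypes overlapped for all 10 members in PBS, and did not for 4.99% of all genes. In LPS none of the 10 passed by edgeR, where 2.05% of all genes did, 1.72% as lower in Adm+/- mice. Fgfr3 was 1.86-fold lower in Adm+/- LPS than in WT LPS (log2 -0.89 ± 0.22, adjusted p = 0.0652, edgeR), Fgf10 1.52-fold lower (-0.60 ± 0.19, adjusted p = 0.151) and Fgf2 1.44-fold higher (0.53 ± 0.19, adjusted p = 0.2). These 3 were the members whose LPS libraries did not overlap between genotypes, as was the case for 24.6% of all genes, and the 3 with an unadjusted p below 0.05, as had 14.3% of all genes. Fgfr3 passed with DESeq2 (adjusted p = 0.00678), without WT PBS replicate 5 (0.0289) and without WT LPS replicate 10 (0.0348), whereas without WT LPS replicates 9 and 11 together its difference was -0.54 (adjusted p = 0.872). Without both libraries that stood apart, Fgfr3 (adjusted p = 0.0295) and Fgf2 (0.00676) passed. The squamous epithelium and skeletal muscle lists were higher in WT LPS than in Adm+/- LPS, and their part in these differences was not tested.

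Feedback and target genes of FGF signalling that passed were all lower with LPS. Of 15 genes on the list 14 were in the table, and all 14 were tested. In WT mice 1 of 14 was down-regulated and none up-regulated, and in Adm+/- mice 4 of 14 were down-regulated and none up-regulated, where 7.09% and 12.2% of all genes passed as lower. The fitted change was negative for 13 of the 14 in WT and for 9 in Adm+/- mice. The median log2 fold changes were -0.29 and -0.27. The transcription factor Etv4 passed in both genotypes: it stood at 13.6, 15.9 and 16.9 CPM in WT PBS against 4.28, 8.32 and 4.82 CPM in WT LPS, and at 21.3, 17.4 and 16.3 CPM in Adm+/- PBS against 6.02, 12.9 and 7.98 CPM in Adm+/- LPS. Its LPS libraries lay below its PBS libraries in both genotypes, with changes of -1.42 ± 0.30 (log2, SE, adjusted p = 0.00723, edgeR) and -1.03 ± 0.29 (adjusted p = 0.0194). The Adm+/- call for Etv4 was lost without Adm+/- LPS replicate 1 (log2 -0.81, adjusted p = 0.0755), Adm+/- LPS replicate 12 (-0.96, 0.0743) or Adm+/- PBS replicate 6 (-0.92, 0.0628).

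Etv5, the related factor needed in type II pneumocytes, fell in Adm+/- mice from 159, 158 and 178 CPM to 83.1, 59.8 and 60.9 CPM (log2 -1.28 ± 0.18, adjusted p = 0.000447, edgeR). In WT mice it went from 169, 153 and 139 CPM to 96.0, 98.1 and 150.1 CPM, with overlap (-0.42 ± 0.18, adjusted p = 0.113), and without WT LPS replicate 11, the high library, the WT change was -0.67 (adjusted p = 0.0145). The difference between the responses of Etv5 was -0.86 ± 0.26 (unadjusted p = 0.00591, adjusted p = 0.401). Of the 9 type II pneumocyte markers listed here, 3 passed as higher and none as lower in Adm+/- mice (12.8% and 12.2% of all genes). The authors, using markers of a cell atlas, reported type II genes as enriched among those falling preferentially in Adm+/- mice. The part of type II cells in the Etv5 values was not tested. Also lower in Adm+/- mice were the decoy receptor Fgfrl1 (-0.70 ± 0.21, adjusted p = 0.0254) and the FGF antagonist Il17rd (-0.53 ± 0.09, adjusted p = 0.00114). Il17rd changed almost as much in WT mice (-0.49 ± 0.09, adjusted p = 0.00368), just short of the fold threshold, and past it without WT PBS replicate 3 or WT LPS replicate 11 (-0.51 and -0.53). The Fgfrl1 call was lost when any of Adm+/- LPS replicates 1, 2 or 12 or Adm+/- PBS replicate 6 was left out (adjusted p from 0.054 to 0.094), and the Il17rd call without Adm+/- PBS replicate 8 (log2 -0.46). The 3 most abundant genes of the list were Spred1, the phosphatase Dusp6 and Etv5, of which Spred1 and Dusp6 passed in neither genotype (log2 -0.06 and -0.25 in WT, 0.08 and -0.18 in Adm+/- mice).

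Spry4, a Sprouty inhibitor of the relay, lay lower with LPS in WT and higher in Adm+/- mice, without overlap between PBS and LPS libraries in either genotype. It was measured at 88.5, 115 and 83.0 CPM in WT PBS and 82.8, 75.9 and 66.5 CPM in WT LPS, where the LPS libraries lay below the PBS ones by a narrow margin. The Adm+/- level was 95.5, 91.1 and 91.1 CPM in PBS and 139, 134 and 107 CPM in LPS, where they lay above. Neither response passed both thresholds (log2 -0.35 ± 0.14, adjusted p = 0.102, and 0.45 ± 0.14, adjusted p = 0.0324 but short of the fold threshold), though the Adm+/- response did without Adm+/- LPS replicate 12 (0.56, adjusted p = 0.022). In LPS its level was 1.69-fold higher in Adm+/- than in WT mice (log2 0.75 ± 0.14, adjusted p = 0.0218, edgeR), the only gene of the list that passed between genotypes. That call was lost without Adm+/- LPS replicate 1 (log2 0.68, adjusted p = 0.109), Adm+/- LPS replicate 2 (0.71, 0.119) or WT LPS replicate 11 (0.68, 0.103).

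**Figure D4:**
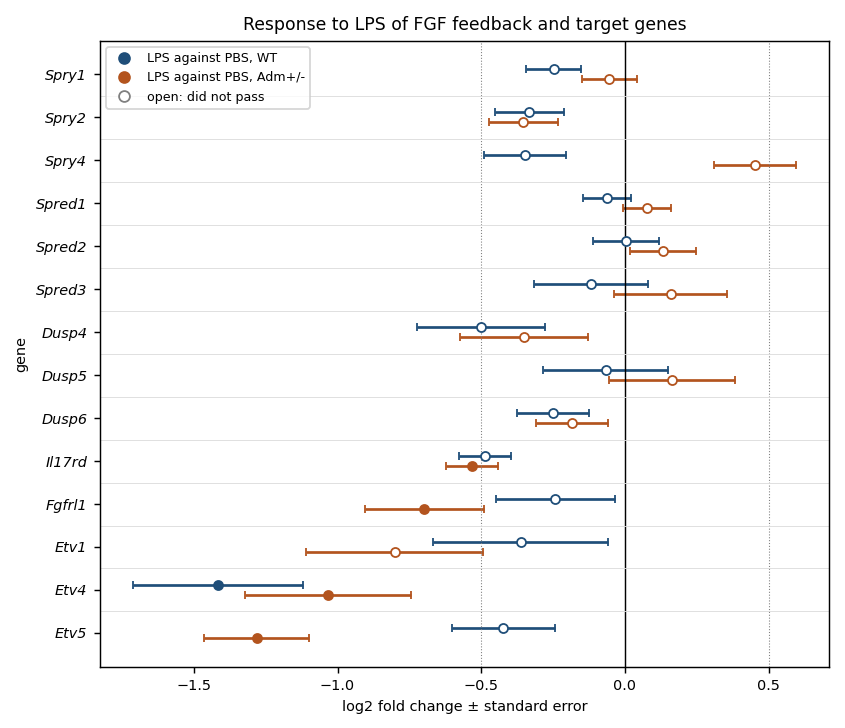
Log2 fold change (point) with its standard error (bar) of the LPS response of the 14 FGF feedback and target genes in the table, in WT and Adm+/- mice (edgeR). Filled points passed, and dotted lines mark ±0.5. Etv4 passed in both genotypes, Etv5, Fgfrl1 and Il17rd in Adm+/- mice, and Spry4 lay on opposite sides of 0.

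Co-receptors, FGF binding proteins and enzymes of heparan sulfate, of which 26 of 27 were tested, went both ways. In WT mice 2 were up-regulated and 2 down-regulated, and in Adm+/- mice 4 and 3, beside 10.5% and 7.09% of all genes in WT and 12.8% and 12.2% in Adm+/- mice. Their median log2 fold changes were -0.19 and -0.02. The syndecan Sdc4 rose 2.81-fold in Adm+/- mice, from 241, 189 and 182 CPM to 498, 678 and 542 CPM (log2 1.49 ± 0.24, adjusted p = 0.000977, edgeR). In WT mice Sdc4 went from 184, 222 and 264 CPM to 405, 445 and 222 CPM (0.68 ± 0.24, adjusted p = 0.0627), and it passed without WT LPS replicate 11, the low library (0.93, adjusted p = 0.00734). The related syndecan Sdc2 fell in both genotypes (-0.62 ± 0.19, adjusted p = 0.0414, and -0.58 ± 0.19, 0.0384), calls that were lost in 8 and 5 of the 12 fits leaving out a library. The adhesion protein Flrt2, which binds FGF receptors, rose in both (0.64 ± 0.17, adjusted p = 0.0199, and 0.66 ± 0.17, 0.0118), calls lost without WT PBS replicate 5, WT LPS replicate 9 or WT LPS replicate 11 in the first case and without Adm+/- PBS replicate 6 in the second. Of the 6-O-sulfotransferases of heparan sulfate, Hs6st1 was higher in Adm+/- mice (0.59 ± 0.11, adjusted p = 0.00235) and Hs6st2 lower (-0.72 ± 0.23, adjusted p = 0.036), the latter in 7 of 12 fits that left out a library. The 3 most abundant genes of the list, the basement membrane proteoglycan Hspg2, the sulfotransferase Ndst1 and the glypican Gpc3, changed by -0.33 to 0.39 in either genotype and did not pass.

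Fgfbp1, a carrier that frees FGFs from the matrix, rose in both genotypes. It stood at 5.48, 8.06 and 6.36 CPM in WT PBS and 17.7, 12.6 and 13.0 CPM in WT LPS, and at 5.58, 5.20 and 5.41 CPM in Adm+/- PBS and 8.27, 7.67 and 9.09 CPM in Adm+/- LPS. LPS libraries lay above PBS libraries in both genotypes, and the changes were 1.12 ± 0.18 (log2, SE, adjusted p = 0.00173, edgeR) and 0.63 ± 0.18 (adjusted p = 0.0213), the second lost in 4 of 12 fits that left out a library. In LPS Fgfbp1 was lower in Adm+/- than in WT mice (-0.79 ± 0.18, adjusted p = 0.044), a call lost in 8 of 12 fits that left out a library. In WT LPS replicates 9, 10 and 11, with Fgfbp1 at 17.7, 12.6 and 13.0 CPM, squamous epithelium markers summed to 2961, 26.2 and 1523 CPM. The same markers summed to 5.06 to 41.4 CPM in Adm+/- LPS. The part of these markers in the Fgfbp1 values was not tested. The binding protein Fgfbp3 was lower with LPS in both genotypes (-0.85 ± 0.27, adjusted p = 0.0424, and -0.90 ± 0.27, adjusted p = 0.0248), and its calls were lost in 9 and 3 of the 12 fits.

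**Figure D5:**
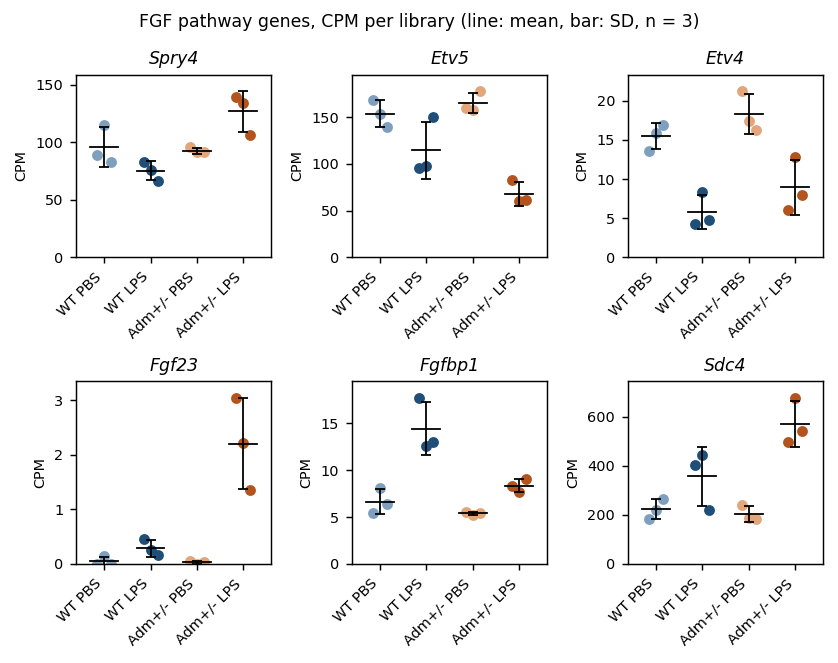
CPM per library (points) with the mean (line) and SD (bar, n = 3) of 6 genes of the FGF pathway that are no ligand or receptor of the 10 described. Etv4 was lower with LPS in both genotypes, Fgf23 and Sdc4 were highest in Adm+/- LPS, and Fgfbp1 was highest in WT LPS.

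Of the other 12 secreted FGFs, 2 (Fgf22 and Fgf23) passed the filter on low counts. No counts of Fgf4, Fgf15 and Fgf20 were found in any library, and the third most abundant, Fgf16, had 1 to 12 counts. Fgf22 was flat at 1.12 to 1.71 CPM. Fgf23, a hormone of phosphate balance that bone normally secretes, had 0, 3 and 0 counts in WT PBS and 15, 6 and 4 counts in WT LPS, and 1, 0 and 1 counts in Adm+/- PBS and 81, 53 and 38 counts in Adm+/- LPS. Against a floor of 3 counts per library, Fgf23 was at least 17.4-fold higher with LPS in Adm+/- mice (adjusted p = 0.000286, edgeR). Fgf23 met the filter on low counts through the Adm+/- LPS libraries, so its entry into the tests depended on the group where it was high. In WT mice it was at least 1.95-fold higher and did not pass (adjusted p = 0.0748), but it did without WT PBS replicate 4, the library with 3 counts (adjusted p = 0.0255). Its level in LPS was 7.25-fold higher in Adm+/- than in WT mice (log2 2.86 ± 0.55, adjusted p = 0.0239), a call lost without WT LPS replicate 11 (adjusted p = 0.106) or any of Adm+/- LPS replicates 1 (0.124), 2 (0.11) and 12 (0.0591). The difference between its responses did not pass (adjusted p = 0.658).

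The FGF homologous factors, which stay inside the cell and bind sodium channels, were low, and 3 of 4 were tested. Fgf12 was lower with LPS in Adm+/- mice (3.26, 4.70 and 5.41 CPM against 2.17, 2.56 and 2.53 CPM, log2 -0.89 ± 0.25, adjusted p = 0.0212, edgeR), a call lost without Adm+/- LPS replicate 1 or 12 or Adm+/- PBS replicate 7 or 8 (adjusted p from 0.0563 to 0.0861). In WT mice Fgf12 changed by -0.75 ± 0.26 (adjusted p = 0.0565), and it passed without WT PBS replicate 4 (-0.90, adjusted p = 0.0438) or Adm+/- PBS replicate 6 (-0.76, 0.0451). Fgf11 and Fgf13 did not pass in either genotype. Of the 19 adaptors and kinases that carry the signal from the receptors to the MAP kinases, 0 passed in either genotype, where 17.6% (WT) and 25% (Adm+/-) of all genes did, and 6 in each had an unadjusted p below 0.05, as had 36.7% and 41.8% of all genes. Their changes ran from -0.40 to 0.43 in WT and from -0.64 to 0.46 in Adm+/- mice, with medians of 0.12 and 0.08. The most abundant, Plcg1, Ptpn11 and Cbl, changed by -0.27, -0.09 and 0.39 in WT mice and by -0.25, 0.15 and 0.33 in Adm+/- mice (log2).

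Genes whose profile over the 12 libraries was most like each member were found by the root mean square difference of log2 CPM, each gene centred on its own mean. For Fgf10 they were Irs1 (0.12), Gpsm2 and Runx1t1 (0.16 each), against a spread of 0.63 of Fgf10 itself. For Fgf18 they were Mmp11 (0.06), Ehd2 (0.07) and Antxr2 (0.08), against 0.45. For Fgfr4 they included Lrp3 (0.15) and Homer3 (0.16), against 0.80, and for Fgfr3 Il17re, Gstt3 and Zfp395 (0.14 each), against 0.53. Fgf1 was most like Magi3, Prkag2 and Lpcat1 (0.07 each, against 0.29), and Fgf2 most like Tcf4 (0.08), Rabgap1l (0.09) and Bgn (0.12), against 0.32. For the flat or scarce members, Fgfr1 was most like Abl1, Arhgef40 and Ighmbp2, Fgfr2 most like Synrg, Atp2c1 and Mtr, Fgf7 most like Cyp2r1, Tmem71 and Pak3, and Fgf9 most like Zfp239, Lrrn2 and Klhl42. No member of the 10 was among the genes most like another. Only the 3 nearest of the 15885 tested genes were kept for each member. This absence therefore does not show whether the members moved together.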

How the data were processed

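Libraries were made from whole lung RNA with a directional kit (NEBNext Ultra II Directional) after rRNA depletion. The authors aligned the reads to mm10 with HISAT2 and deposited raw featureCounts counts per Gencode gene, with no normalization. The submitters' processing notes also name Trim Galore. The Gencode release and the strand option are not given in the sources used here, and positions, lengths and overlaps were taken from Gencode M21, in which 99.7% of the 52550 genes were found. Counts carry no molecular identifiers, so the floor of 3 counts covers counting error only.

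Of 21950 protein-coding genes, 15885 passed edgeR's filterByExpr. TMM scaling was followed by the quasi-likelihood F-test of edgeR 4.0.16 in R 4.3.3, in 1 fit of 4 groups with 8 residual degrees of freedom and 5 contrasts. A gene passed at a Benjamini-Hochberg adjusted p below 0.05 over all tested genes and an absolute log2 fold change above 0.5. Standard errors were derived from the fold change and its F statistic. The fit was tested on simulated data. Replicates are separate mice. None of the 12 pairs of libraries within a group held identical counts, and their differences exceeded counting noise (chi-square divided by its degrees of freedom, 16.0 to 177).

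The members and gene lists were chosen with earlier results of these data known. Named are all 10 members, the genes of each FGF list that passed (up to 4 per direction and contrast, by p) and its 3 most abundant, the 3 most abundant genes of some marker lists, the 3 genes most like each member, and Fgf11, Fgf13 and Fgf16, in counts and ranges. A gene that this rule names is not reported here. Spry4 was described at length after its values were seen. Alternatives used limma 3.58.1 and DESeq2 1.42.0.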

Additional observations from a re-analysis of the deposited data

Results flagged for a closer look

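Spry4 was marked because its LPS libraries moved in opposite directions in the genotypes, with all 3 WT LPS libraries below all 3 WT PBS libraries and all 3 Adm+/- LPS libraries above all 3 Adm+/- PBS libraries. The difference of its LPS responses (Adm+/- minus WT) was 0.80 ± 0.20 (log2, SE) with an unadjusted p of 0.00202 and an adjusted p of 0.275 by edgeR, so it did not pass, whereas DESeq2 gave an adjusted p of 0.0325. It ranged from 0.65 to 0.91 over the 12 fits that each left out a library. The cause was not tested.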

How the results depend on the processing

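Counts of calls that moved and directions that turned are given by setting, and the cause was not tested. FGF members down-regulated by LPS in WT numbered 3, but 0 with limma-voom's treat, 1 with glmTreat (both against 0.5), 1 in a fit of only the groups compared and 0 without WT LPS replicates 9 and 11 together, an alternative chosen after seeing the data that leaves that group 1 library, assumed to vary like the others (2 to 4 with single libraries left out). Members that passed in either direction in Adm+/- mice numbered 5, and 2 with limma-voom's treat (5 to 6, the added one being Fgf2, as higher). Members that passed between genotypes in LPS numbered 0, but 1 with DESeq2, 1 with only the groups compared and 2 without WT PBS replicate 5 and Adm+/- PBS replicate 6 together (0 to 1). Feedback and target genes that passed numbered 1 in WT, 2 with no fold threshold, with all annotated genes or without replicates 5 and 6, and 0 with limma-voom's treat or without replicates 9 and 11 (1 to 3). In Adm+/- mice they numbered 4, and 1 with limma-voom's treat or glmTreat (2 to 5). For the difference of responses they numbered 0, and 1 with DESeq2. Directions turned without replicates 5 and 6 for the WT changes of Fgf2 (-0.14), Fgf7 (-0.18) and Fgfrl1 (0.021) and the Adm+/- change of Fgfr1 (0.0028), and without replicates 9 and 11 for Fgf7 (-0.022) and Hs6st2 (0.087) in WT and for Fgfr1 between genotypes in LPS (-0.064). With single libraries left out, WT changes ranged from -0.14 to 0.20 for Fgf2, -0.18 to 0.22 for Fgf7, -0.092 to 0.048 for Fgfr2 and -0.39 to 0.021 for Fgfrl1. Among single genes under settings other than leaving out 1 library, 784 values kept direction and side of the threshold, 65 lost a call and 18 gained one. Over all genes, 2791 passed in WT (542 with limma-voom's treat, 1001 with glmTreat, 1152 with only the groups compared, 1443 without WT LPS replicate 9, 759 without replicates 9 and 11) and 3968 in Adm+/- mice (1139 and 1695 with the first pair of tests). Between genotypes in LPS 325 passed (803 with DESeq2, 133 with glmTreat, 79 with limma-voom's treat, 81 to 573 with single libraries left out, 107 without replicates 9 and 11, 548 without 5 and 6), and 23 for the difference (168, 13 and 0, and 5 to 65). RLE size factors and other filters on low counts moved no count of members or feedback genes by over 1.5 times. A fit of only the groups compared cannot give the difference, which needs all 4. The sample labels name no litter or other link between animals, so no paired analysis was possible. At this depth 10 of the 12 other secreted ligands did not pass the filter on low counts, and low expression and no expression cannot be told apart.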
